A study of Mus musculus with 18 samples.

Results

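The comparison described here set testes of busulfan-treated mice (B0) against testes of untreated mice (A0), both cultured without alginate oligosaccharides (AOS), by gene expression. It used 6 of the 18 RNA-seq samples of the study, 3 in each group. A gene entered the test when its FPKM, fragments scaled to transcript length and to library size, was at least 1 in 3 or more of these 6 samples, and 15070 of the 22657 genes in the table did so. All mice were of the ICR strain. In B0, mice had received busulfan once at 3 weeks of age, at 40 μg per g body weight, and the testes were taken 2 weeks later. The A0 testes came from mice without busulfan and were collected at the same time. Testes of both groups then spent 48 h at 37 °C in DMEM/F12 medium with 10% fetal bovine serum, so every value below is that of cultured tissue. The other 12 samples were cultured with 10 or 50 μg/mL AOS (A10, BA10, A50 and BA50). The methods give 6 testes per treatment in each of 3 repeats, whereas the labels do not say whether samples of a group came from separate animals, so the p-values measure the spread between these samples, which may be technical.

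Busulfan is an alkylating drug that crosslinks DNA and is used to deplete the testis of spermatogonia, the dividing germ cells that renew the tissue. Spermatogonia give rise to spermatocytes, which pair and recombine their chromosomes in meiosis, and then to round and elongating spermatids, which build the acrosome, pack DNA with protamines and form the tail. Sertoli cells nurse the germ cells within the tubules, peritubular myoid cells surround the tubules, and Leydig cells between them make androgen.

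Most tested genes of meiotic entry (6 of 10), chromosome synapsis (19 of 23) and the piRNA pathway (15 of 19) were lower in B0, those of spermatids passed the test in neither direction, and most adipocyte (8 of 9) and simple epithelium (7 of 11) genes tested were higher. The lists were chosen with earlier results of these data known, so such shares are descriptions and no list was tested. By the limma test on log2(FPKM + 1), with Benjamini-Hochberg adjusted p under 0.05, 1888 genes (12.5% of those tested) were lower in B0 than in A0 and 230 (1.53%) were higher. More genes were called lower than higher. The A0 mean was at least 4 times the B0 mean for 242 of the lower genes, and the B0 mean was at least 4 times the A0 mean for 32 of the higher genes. There were 247 genes with at least 1 FPKM in every A0 sample and less than 1 in every B0 sample, of which 214 were called, and 42 genes with the opposite pattern, of which 21 were called. Such genes entered the test through 1 group alone, so the filter fixed that their groups lay apart and in which direction. The share of higher genes among the calls was 10.9%, and quantile normalization raised it to 24.6% (481 higher and 1474 lower). Scaling to the column sum lowered it to 6.81% (157 higher and 2148 lower). Under stricter limits, an adjusted p of at most 0.001 with a log2 difference of at least 1, 391 genes (2.59%) were lower and 8 (0.0531%) were higher. The median log2 difference over all genes tested was -0.04. In whole tissue, fewer cells of a type and less RNA per cell cannot be told apart. A difference on the log2(FPKM + 1) scale also understates the change of genes with low FPKM.

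**Figure D1:**
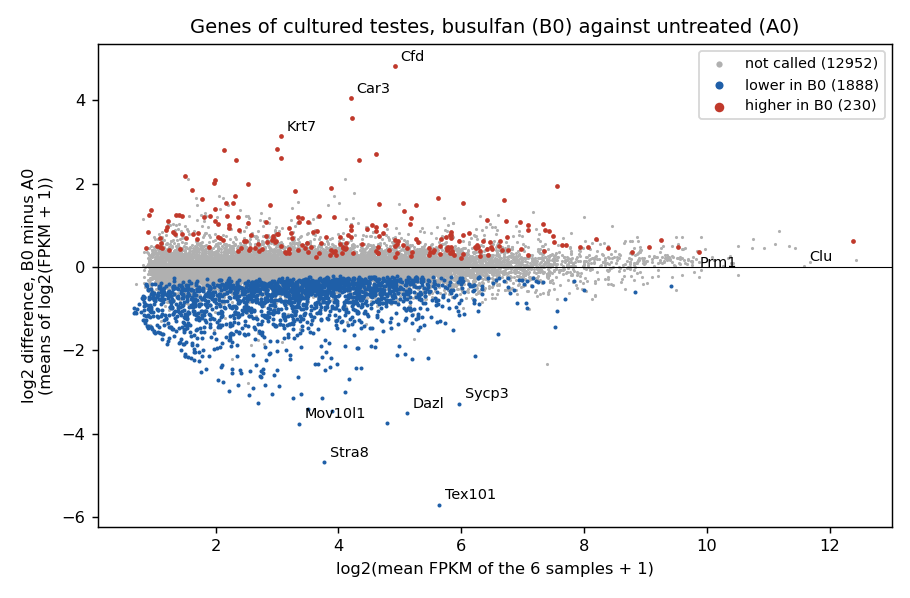
Each point is a gene, with log2 of its mean FPKM over the 6 samples plus 1 on the horizontal axis and the log2 difference, B0 minus A0, on the vertical axis. Of the 15070 genes, 1888 were called lower (blue) and 230 higher (red), and the largest falls reach further from 0 than the largest rises.

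FPKM values per sample summed to between 467548 and 476872 in A0 and between 477559 and 507867 in B0. The number of genes with at least 1 FPKM was 14901 to 15040 in A0 and 14537 to 14745 in B0. The 50 most abundant genes made up 12.7% to 13.97% of the sum in A0 and 15.3% to 16.3% in B0. On each of these measures, the sums among them, the groups did not overlap. Defining genes of the testis were present in all 6 samples, among them Clu of Sertoli cells (2634 to 3826 FPKM) and Insl3 of Leydig cells (233 to 840 FPKM). Some samples stood apart in single gene groups. A0 sample 1 had the highest spermatid level, B0 sample 1 the highest adipocyte level and B0 sample 2 the highest epithelial level, and those values are given beside the results they touch.

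Among markers of spermatogonial stem cells, 3 of 11 tested genes fell and 1 rose, with a median log2 difference of -0.46. Lin28a, an RNA-binding protein of undifferentiated spermatogonia, measured 3.47, 4.46 and 3.41 FPKM in A0 and 0.05, 0.08 and 0.08 in B0 (log2 difference -2.15 ± 0.12 SE, adjusted p = 2.1e-08). Sall4, a zinc-finger transcription factor of the same cells, was at 1.57, 2.33 and 1.44 FPKM in A0 and at most 0.01 in B0 (-1.45 ± 0.12, adjusted p = 1.4e-06). Neither gene overlapped between the groups, which the filter fixed, since every B0 value was below 1 FPKM. Id4, a helix-loop-helix inhibitor that marks stem spermatogonia, measured 10.9, 8.15 and 9.64 FPKM in A0 and 3.56, 3.58 and 4.83 in B0 (-1.08 ± 0.12, adjusted p = 1.5e-05). The 7 members that passed in neither direction had differences from -0.64 to 0.28. Gfra1, the receptor for the niche factor GDNF, was at 2.53, 2.76 and 1.83 FPKM in A0 and 0.74, 2.13 and 1.64 in B0, values that overlap (-0.46, 95% interval -1.01 to 0.09, adjusted p = 0.30). Etv5, a transcription factor that responds to GDNF and is made by Sertoli cells as well, measured 9.71 to 14.3 FPKM in A0 and 11.7 to 13.0 in B0 (0.12, 95% interval -0.25 to 0.49). The member that rose was Cdh1, E-cadherin, which epithelia also make, with 2.35, 0.61 and 0.82 FPKM in A0 and 2.04, 12.6 and 4.93 in B0. Its groups overlap and B0 sample 2 is the highest. Without that sample the call was lost (adjusted p = 0.093), as it was without B0 sample 3, A0 sample 2 or A0 sample 3. The other 5 listed markers (Nanos2, Nanos3, Eomes, Pax7 and Egr4) did not pass the filter on low values.

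Genes of differentiating spermatogonia and meiotic entry fell in 6 of 10 cases, and none rose. Their median log2 difference was -1.49, and the median member had 14.6% of its A0 level left in B0. Stra8, which the retinoic acid signal switches on as germ cells enter meiosis, measured 20.04, 31.9 and 23.9 FPKM in A0, while B0 samples 1 and 2 were listed at 0 and sample 3 at 0.02 (log2 difference -4.68 ± 0.20, adjusted p = 1.9e-09). Meiosin, the partner of STRA8 at meiotic promoters, was at 7.75, 6.12 and 4.54 FPKM in A0 and 0.08, 0.09 and 0.05 in B0 (-2.71 ± 0.22, adjusted p = 9.4e-07). For both genes every B0 value lay below 0.1 FPKM. Sohlh2, a helix-loop-helix factor of differentiating spermatogonia, fell from 7.25, 7.27 and 6.97 FPKM to 0.27, 0.67 and 0.29 (-2.54 ± 0.17, adjusted p = 8.6e-08), and its partner Sohlh1, Rhox13 and the DNA methyltransferase gene Dnmt3b fell as well. All 6 genes that fell had every B0 value below 1 FPKM. They passed the filter only through A0, which fixed their direction and separation. Kit, the receptor of differentiating spermatogonia that Leydig cells also carry, did not pass the test, with 11.4, 16.5 and 14.1 FPKM in A0 against 10.2, 10.7 and 9.82 in B0 (-0.40, 95% interval -1.02 to 0.21, adjusted p = 0.45). Rec8, the meiotic cohesin subunit, had overlapping values of 7.6 to 11.5 FPKM in A0 and 6.48 to 10.6 in B0 (-0.03, 95% interval -0.63 to 0.57). Dmrtb1 (-0.74, adjusted p = 0.11) and Prdm9, the methyltransferase that places recombination sites (-0.45, adjusted p = 0.074), did not pass either.

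Of 23 tested genes for chromosome synapsis and recombination, which act in early spermatocytes, 19 fell and none rose. Their median log2 difference was -1.43, and 22 of the 23 had every B0 value below every A0 value, a pattern that 22.8% of all genes tested showed. For Hormad2, Dmc1, Spo11, Rad21l, Majin and Terb2 the filter fixed this pattern, since every B0 value was below 1 FPKM. Hormad1, a protein of the unsynapsed chromosome axis, measured 55.4, 45.5 and 50.9 FPKM in A0 and 2.47, 4.28 and 2.15 in B0 (-3.73 ± 0.21, adjusted p = 1.7e-08). Sycp3, the axis protein of the synaptonemal complex that joins paired chromosomes, was at 116, 114 and 109 FPKM in A0 and 9.19, 13.4 and 9.86 in B0 (-3.28 ± 0.17, adjusted p = 8.6e-09). B0 thus retained 9.58% of the A0 level of Sycp3. Sycp1, the transverse filament of the same complex, fell less, from 33.1, 26.5 and 30.1 FPKM to 6.99, 14.9 and 10.8 (-1.43 ± 0.33, adjusted p = 0.0075). Dmc1, the meiotic recombinase, Spo11, which makes the DNA breaks that start recombination, and Meiob, which binds single-stranded DNA, fell by 2.46, 1.69 and 2.34 on the log2 scale. The members that did not pass were Syce1, Syce2, Syce3 and Msh4, with differences from -0.73 to -0.17. Syce3, for example, a central element protein of the complex, measured 51.4, 34.3 and 37.2 FPKM in A0 and 39.9, 42.8 and 26.5 in B0 (95% interval -0.81 to 0.46). Mei1, Mei4 and Spata22 did not pass the filter.

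The promoters of synapsis genes are shown because most of these genes fell and some share letters that transcription factors read. In the RefSeq promoter table of GRCm38.p6, 11410 of the 15070 tested genes had an entry. The 250 bases before each start were searched on both strands for GCGGGAA, letters that E2F factors bind, CNCCTCAG, letters linked to STRA8, and TGACGTCA, the cAMP response element; none of the 3 contains another. GCGGGAA was present before 6 of 18 synapsis genes with an entry (33.3%), before 11.6% of the genes called lower, before 5.20% of those called higher and before 7.71% of all 11410. CNCCTCAG was present before 3 of 10 genes of the meiotic entry list (30.0%), namely Meiosin, Sohlh2 and Prdm9. It was present before 11.1% of the genes called lower, 8.09% of those called higher and 8.85% of all. TGACGTCA was found before 2 of 20 round spermatid genes, Izumo1 and Spag4, and before 2.82% of all. For each of the 3 motifs, the list named had the highest share among the germ cell lists searched. GCGGGAA preceded no stem cell, late spermatocyte or elongating spermatid gene, of which only 6, 13 and 18 had an entry. TGACGTCA preceded no gene of the other germ cell lists. Lists this small cannot show whether their shares differ from those of all genes. A match is a description of letters and not a binding site. The lines below give the 250 bases before the start of 4 synapsis genes that fell, 5′ to 3′ on the strand of the gene, with GCGGGAA or its reverse complement in capitals. Sycp3 lies on the plus strand (chr10:88459337-88459586), Hormad1 on the plus strand (chr3:95559427-95559676), Tex12 on the minus strand (chr9:50561269-50561518) and Smc1b on the minus strand (chr15:85131958-85132207).
Sycp3: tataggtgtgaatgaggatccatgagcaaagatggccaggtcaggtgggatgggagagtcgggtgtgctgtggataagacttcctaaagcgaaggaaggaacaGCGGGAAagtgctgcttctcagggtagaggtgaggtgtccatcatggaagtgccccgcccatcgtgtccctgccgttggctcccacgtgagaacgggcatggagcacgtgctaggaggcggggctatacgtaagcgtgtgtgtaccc
Hormad1: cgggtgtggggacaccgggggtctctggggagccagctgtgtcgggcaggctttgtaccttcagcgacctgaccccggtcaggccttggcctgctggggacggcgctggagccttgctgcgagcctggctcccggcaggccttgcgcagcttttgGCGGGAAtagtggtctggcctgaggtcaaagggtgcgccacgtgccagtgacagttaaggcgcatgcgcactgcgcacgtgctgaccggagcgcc
Tex12: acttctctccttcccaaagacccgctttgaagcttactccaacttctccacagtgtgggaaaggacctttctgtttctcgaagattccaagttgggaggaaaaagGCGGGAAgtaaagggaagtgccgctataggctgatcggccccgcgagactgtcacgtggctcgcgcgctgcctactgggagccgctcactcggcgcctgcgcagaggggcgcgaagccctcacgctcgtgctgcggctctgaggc
Smc1b: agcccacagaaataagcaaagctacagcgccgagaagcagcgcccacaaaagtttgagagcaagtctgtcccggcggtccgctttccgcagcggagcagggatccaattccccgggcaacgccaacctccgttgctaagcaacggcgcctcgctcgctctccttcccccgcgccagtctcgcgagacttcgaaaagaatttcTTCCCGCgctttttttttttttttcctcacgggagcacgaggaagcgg
In these windows the match began 147 bases before the start in Sycp3, 95 in Hormad1, 145 in Tex12 and 48 in Smc1b, where it lay on the opposite strand. The levels of the 4 genes fell to different degrees. Tex12, a central element protein of the synaptonemal complex, went from 12.4, 9.74 and 9.23 FPKM to 0.87, 1.15 and 0.52 (-2.64 ± 0.16, adjusted p = 4.5e-08). Smc1b, a meiotic cohesin subunit, went from 39.7, 28.0 and 38.6 FPKM to 12.0, 19.95 and 11.2 (-1.27 ± 0.33, adjusted p = 0.016). Syce2, which carries the same letters, did not pass the test (-0.41, adjusted p = 0.37).

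Genes of the piRNA pathway, which silences transposons in the germline with small RNAs, and related germline RNA-binding proteins fell in 15 of 19 cases, and none rose (median log2 difference -1.17). Mov10l1, the helicase that starts piRNA processing, was at 18.7, 18.6 and 17.0 FPKM in A0 and 0.35, 0.62 and 0.27 in B0 (-3.76 ± 0.14, adjusted p = 3.1e-10). Piwil1, the PIWI protein of pachytene spermatocytes, measured 17.8, 9.13 and 22.1 FPKM in A0 and 0.75, 1.29 and 0.56 in B0 (-3.15 ± 0.23, adjusted p = 2.1e-07). Dazl, a germ cell RNA-binding protein that regulates translation, was at 64.1, 60.7 and 63.9 FPKM in A0 and 3.68, 6.42 and 4 in B0 (-3.52 ± 0.34, adjusted p = 5.0e-06). B0 was highest in sample 2 for each of the 3 genes and still far below A0. For Mov10l1, and for Pld6 of the same list, every B0 value was below 1 FPKM. Both passed the filter only through A0, which fixed their direction and separation. Ddx4, the germ cell helicase known as VASA, fell less, from 100.1, 71.0 and 97.0 FPKM to 38.6, 55.2 and 29.1 (-1.14 ± 0.24, adjusted p = 0.0041). Gtsf1 (107 to 170.0 FPKM in A0 and 91.9 to 148 in B0), Mael, Tdrd7 and Rnf17 did not pass the test, and their differences ran from -0.68 to -0.18.

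Late spermatocyte genes fell in 9 of 20 cases, none rose, and the median log2 difference of -0.62 lay between those of the synapsis and the spermatid genes. In the fit of the 6 samples alone 4 were lower. Tesmin, a DNA-binding protein of spermatocytes, fell most, from 23.3, 17.5 and 23.3 FPKM to 4.36, 6.22 and 2.99 (-2.05 ± 0.23, adjusted p = 1.7e-05). Mybl1, the transcription factor that drives the pachytene program, measured 7.96, 5.99 and 9.54 FPKM in A0 and 2.29, 3.54 and 2.47 in B0 (-1.22 ± 0.17, adjusted p = 0.00012). Spdya, an activator of cyclin-dependent kinases, fell from 26.7, 15.95 and 25.04 FPKM to 7.92, 11.3 and 6.08 (-1.33 ± 0.23, adjusted p = 0.00099). The 11 other members were not called. Ldhc, the germ cell lactate dehydrogenase, was at 1024, 644 and 899 FPKM in A0 and 604, 759 and 412 in B0 (-0.55, 95% interval -1.14 to 0.04, adjusted p = 0.24), and Pgk2, the germ cell phosphoglycerate kinase, at 115 to 200.1 and 114 to 169 FPKM (-0.13, 95% interval -0.77 to 0.50).

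No member of the spermatid lists passed the test. The 24 round spermatid genes had a median log2 difference of 0.15 and the 20 elongating spermatid genes one of -0.12. In none of the 44 did the values of the groups lie apart. Of all genes tested, 22.8% lay apart with B0 lower and 10.6% with B0 higher. Acrv1, an acrosomal protein, measured 60.7, 36.6 and 38.4 FPKM in A0 and 65.8, 66.7 and 40.3 in B0 (0.34, 95% interval -0.37 to 1.06, adjusted p = 0.61). Tnp1, the transition protein that replaces histones, was at 606, 386 and 462 FPKM in A0 and 336, 481 and 503 in B0 (-0.14, 95% interval -0.84 to 0.57, adjusted p = 0.86). Prm1, a protamine that packs sperm DNA, was at 1205, 679 and 905 FPKM in A0 and 622, 1019.9 and 911 in B0 (-0.12, 95% interval -0.82 to 0.58, adjusted p = 0.88). In all 3 genes the A0 samples spread as widely as the groups differed, and the intervals are wide enough to hold a fall or a rise of moderate size. The elongating spermatid genes summed to 7030.5, 4004.7 and 4892 FPKM in A0 and 4218, 5571 and 4698 in B0, with A0 sample 1 the highest. Without A0 sample 1 the medians were 0.40 for round and 0.14 for elongating spermatid genes, and without A0 sample 2 they were -0.03 and -0.28.

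**Figure D2:**
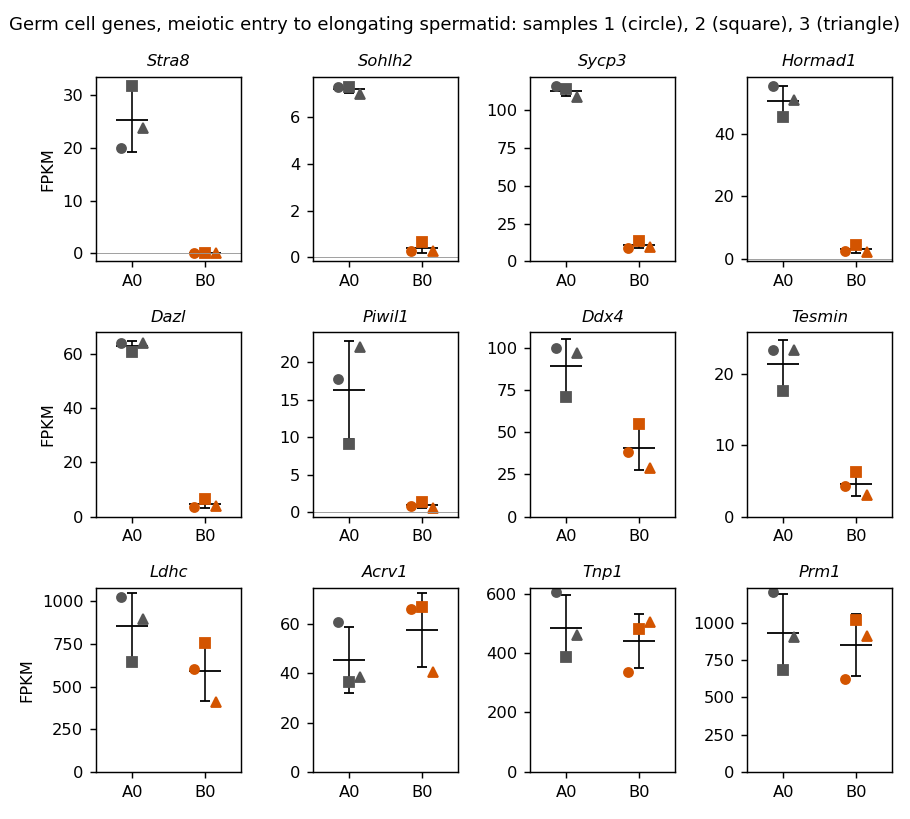
FPKM of 12 germ cell genes in each sample, A0 (gray) and B0 (orange), with the mean and SD of 3 samples. Reading from Stra8 to Prm1, the groups lie apart for the genes of meiotic entry, synapsis and the piRNA pathway and overlap for Ldhc, Acrv1, Tnp1 and Prm1. For Stra8 and Sohlh2 the filter fixed this, since every B0 value was below 1 FPKM.

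Several of the 10 largest falls lay outside the lists. Tex101, a germ cell surface glycoprotein anchored in the membrane, had the largest log2 difference of all genes with a symbol that were called and did not overlap, with 99.9, 103 and 87.9 FPKM in A0 and 1.05, 0.96 and 0.62 in B0 (-5.71 ± 0.13, adjusted p = 8.8e-13). Its A0 mean was 111 times the B0 mean. Slc25a31, the germ cell carrier that exchanges ADP and ATP across the mitochondrial membrane, measured 21.0, 18.8 and 19.4 FPKM in A0 and 0.63, 1.68 and 0.73 in B0 (-3.40 ± 0.19, adjusted p = 1.6e-08). Fkbp6, a cochaperone of the piRNA pathway, was at 24.4, 23.1 and 21.4 FPKM in A0 and 1.33, 1.77 and 2.02 in B0 (-3.15 ± 0.13, adjusted p = 7.6e-10). Prss50, a testis protease, and Gm364 fell by 3.27 and 3.47 on the log2 scale. Together with Stra8, Mov10l1, Hormad1, Dazl and Sycp3 these make up the 10. Among them Stra8, Mov10l1 and Prss50 had every B0 value below 1 FPKM. They passed the filter only through A0, which fixed their direction. By chromosome, 11.9% of 663 tested genes on X, 12.9% of 13517 on the autosomes and 6.85% of the other 890, most of them without an assigned chromosome, were lower.

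Genes of cell division fell as well. Of 21 genes for replication and mitosis, 17 fell and none rose (median log2 difference -0.95, 44.8% of the A0 level retained by the median member). Top2a, the topoisomerase that untangles replicated DNA, measured 37.5, 36.5 and 35.4 FPKM in A0 and 10.1, 11.0 and 9.43 in B0 (-1.74 ± 0.09, adjusted p = 1.0e-08). Mki67, the Ki-67 proliferation marker, was at 9.80, 10.3 and 9.92 FPKM in A0 and 3.19, 3.08 and 3.50 in B0 (-1.37 ± 0.14, adjusted p = 6.2e-06). Cdc20, an activator of the anaphase-promoting complex, fell by 1.46 ± 0.15 on the log2 scale. The replicates of these genes were tight. Neither group reached the other, which held for 1875 of all 1888 genes called lower. Pcna, Tyms, Rrm2 and Ccnb2 did not pass, and Rrm2, a subunit of ribonucleotide reductase, was at 9.36 to 10.8 FPKM in A0 and 7.91 to 12.0 in B0 (0.07, 95% interval -0.39 to 0.52).

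The Fanconi anemia pathway, which removes the interstrand DNA crosslinks that agents such as busulfan make, showed 13 lower and no higher genes of 20 tested (median log2 difference -0.71). Ube2t, the ubiquitin-conjugating enzyme of the pathway, measured 31.0, 26.5 and 31.1 FPKM in A0 and 3.00, 2.69 and 2.78 in B0 (-2.99 ± 0.10, adjusted p = 9.4e-11). Fancd2, the protein that the pathway ubiquitinates, fell by 1.32 ± 0.14 on the log2 scale. Brca1 and Brca2, which act in recombination repair, fell by 0.78 and 1.13. The 7 members that did not pass were Ercc1, a subunit of a repair endonuclease, at 31.9, 41.3 and 37.2 FPKM in A0 and 49.6, 35.0 and 40.9 in B0 (0.17, adjusted p = 0.63), and Fancl, Fance, Fancf, Fancm, Fancc and Fan1, with differences between -0.32 and 0.08. Fancb did not pass the filter.

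Genes of p53 signaling, which answers DNA damage, rose in 6 of 19 cases and fell in none (median log2 difference 0.53). Eda2r, a receptor of the TNF family, measured 2.84, 2.43 and 2.65 FPKM in A0 and 6.09, 5.71 and 5.37 in B0 (0.89 ± 0.17, adjusted p = 0.0022). Phlda3, an inhibitor of AKT, was at 13.0, 20.4 and 15.6 FPKM in A0 and 38.9, 23.7 and 29.2 in B0 (0.86 ± 0.25, adjusted p = 0.029), and Trp53inp1, which promotes cell death, at 17.3, 17.1 and 19.6 against 27.0, 42.7 and 29.0 (0.81 ± 0.23, adjusted p = 0.030). Ccng1, Zmat3 and Btg2 rose by 0.72, 0.63 and 0.68 on the log2 scale. None of the 6 genes overlapped between groups, which held for 225 of all 230 genes called higher. Those 230 were 1.53% of all genes tested. Cdkn1a, the p21 cell cycle inhibitor, varied too widely to be called, with 38.4, 99.8 and 48.9 FPKM in A0 and 198, 102 and 69.0 in B0 (0.95 ± 0.94, adjusted p = 0.62). Mdm2, which p53 induces and which degrades it, measured 38 to 43.9 FPKM in A0 and 44.0 to 50.4 in B0 (0.21, adjusted p = 0.16). Leaving out 1 sample at a time, 3 to 5 of the list were called, with 3 when A0 sample 1, A0 sample 3 or B0 sample 3 was left out.

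Few somatic cell markers passed the test. Of 19 tested Sertoli cell genes 1 rose and none fell, with a median log2 difference of 0.00, and Sox9, a transcription factor that specifies the cell, was at 18.02, 18.6 and 15 FPKM in A0 and 13.8, 14.6 and 19.4 in B0 (-0.12, 95% interval -0.74 to 0.51). Clu, the secreted chaperone that was the most abundant Sertoli cell marker, measured 2760, 3714 and 2634 FPKM in A0 and 2692, 2766 and 3826 in B0 (0.03, 95% interval -0.70 to 0.75). The gene that rose was Trf, transferrin, at 88.5, 79.5 and 91.1 FPKM in A0 and 262, 124 and 168 in B0 (1.02 ± 0.20, adjusted p = 0.0027). B0 sample 1 was the highest in Trf, as it was in the adipocyte genes, and in a fit of the 6 samples alone Trf was not called (adjusted p = 0.057). The interval for Sox9 or Clu still allows a change of moderate size in either direction.

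Of 12 tested Leydig cell genes none was called (median log2 difference 0.28). Star, the protein that brings cholesterol into mitochondria for steroid synthesis, measured 187, 193 and 227 FPKM in A0 and 237, 356 and 352 in B0, so the groups lay apart without passing the test (0.62, 95% interval 0.16 to 1.07, adjusted p = 0.072). Insl3, a peptide hormone of the cell, was at 307, 233 and 373 FPKM in A0 and 318, 362 and 840 in B0 (0.61, adjusted p = 0.41), with B0 sample 3 the highest. Among 11 myoid cell genes 1 rose, the tropomyosin gene Tpm2, at 24.8, 37.6 and 28.1 FPKM in A0 and 56.7, 39.2 and 43.2 in B0 (0.61 ± 0.17, adjusted p = 0.026). That call was lost in the fit of the 6 samples alone (adjusted p = 0.10) and when any sample other than A0 sample 2 or B0 sample 2 was left out. Acta2, smooth muscle actin, had overlapping values of 39.8, 91.8 and 42.0 FPKM in A0 and 81.6, 37.1 and 66.8 in B0 (0.13, 95% interval -0.72 to 0.98).

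The endothelial list was uniform in direction without a single call. All 12 genes had a positive difference (median 0.55), and in 9 of the 12 every B0 value lay above every A0 value, a pattern that 10.6% of all genes tested showed. Pecam1, the junction protein CD31, measured 11.3, 16.2 and 12.4 FPKM in A0 and 26.0, 23.5 and 19.96 in B0 (0.77, 95% interval 0.21 to 1.33, adjusted p = 0.067). Emcn, a sialoglycoprotein of small vessels, was at 16.8, 16.3 and 15.2 FPKM in A0 and 25.8, 32.4 and 24.9 in B0 (0.74, 95% interval 0.17 to 1.30, adjusted p = 0.084). Under quantile normalization 6 of the 12 were called higher, and in the fit of the 6 samples alone 3 were. Macrophage and MHC II genes gave no call in 18 (median -0.03), with Lyz2, lysozyme, at 330.4, 516 and 499 FPKM in A0 and 593, 306 and 472 in B0. Of lymphocyte genes only Cd3d passed the filter, and it was not called (0.07). Among 21 extracellular matrix genes Fn1, fibronectin, rose from 71.2, 60.1 and 107 FPKM to 174, 179 and 146 (1.09 ± 0.25, adjusted p = 0.0083) and no other member was called (median 0.02). Signals of the germ cell niche gave no call in 11 genes (median 0.24), and Cxcl12, a chemokine, was at 93.8, 133 and 157 FPKM in A0 and 146, 69.5 and 190 in B0 (-0.01). Gdnf, the ligand of GFRA1, measured 3.20, 4.86 and 4.45 FPKM in A0 and 5.31, 5.73 and 5.57 in B0 (0.35, 95% interval -0.02 to 0.72, adjusted p = 0.23).

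**Figure D3:**
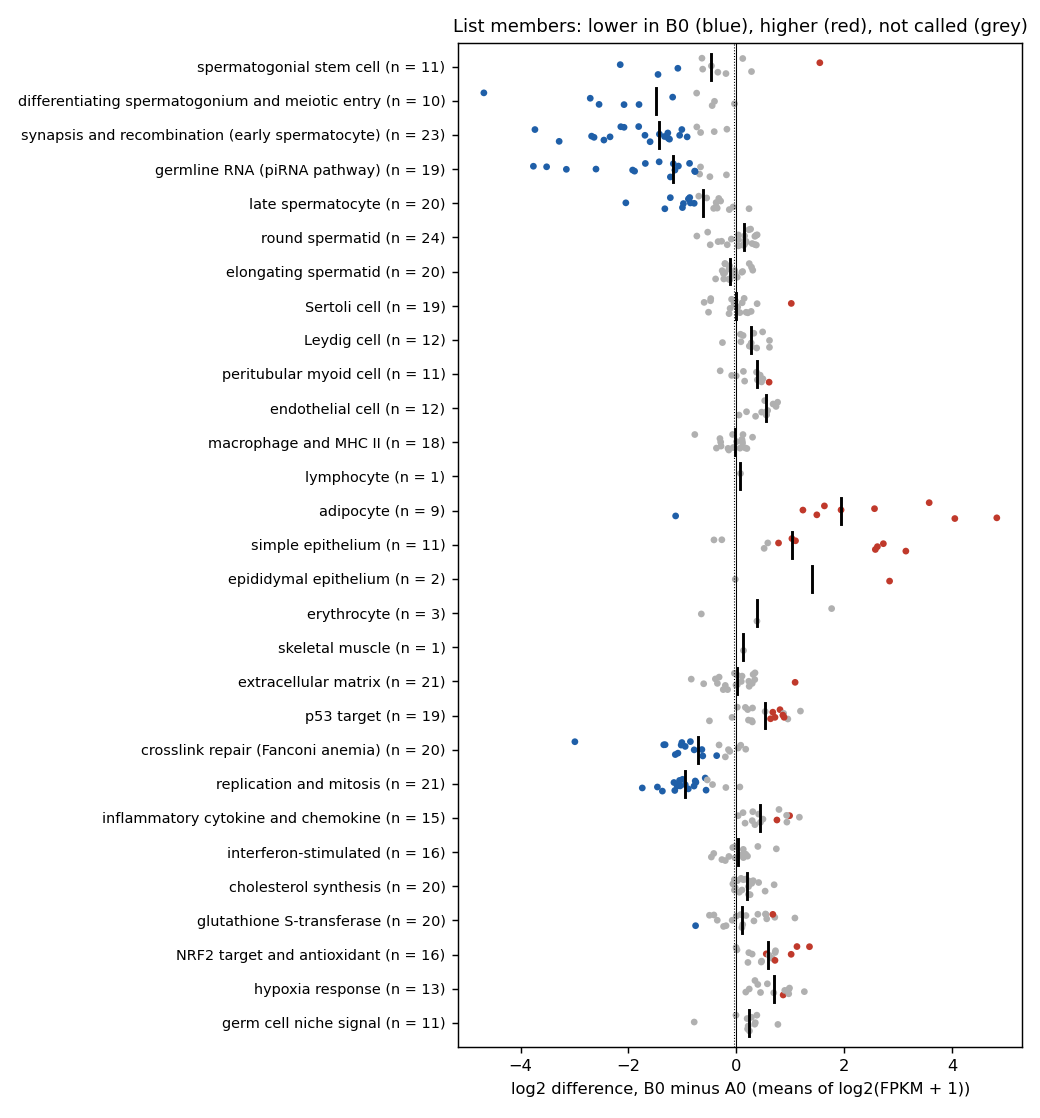
Log2 difference, B0 minus A0, of every tested member of the 29 lists (points, colored by call), with the median of each list (black bar) and of all genes tested (dotted line at -0.04). Medians move from -1.49 at meiotic entry to 0.15 and -0.12 in spermatids, and the adipocyte list has the highest median, 1.94.

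Of the 10 largest rises, 4 were adipocyte genes and 4 were keratins. Of 9 tested adipocyte genes 8 rose and 1 fell (median log2 difference 1.94). Cfd, the fat cell protease adipsin, measured 1.61, 0.31 and 0.22 FPKM in A0 and 114, 18.2 and 42.5 in B0 (4.83 ± 0.66, adjusted p = 0.00012). Car3, a carbonic anhydrase abundant in fat, was at 0.53, 0.24 and 0.21 FPKM in A0 and 83.2, 11.1 and 9.25 in B0 (4.05 ± 0.55, adjusted p = 0.00010). Retn, the hormone resistin, was at 0.90, 1.05 and 0.99 FPKM in A0 and 78.1, 8.99 and 15.6 in B0 (3.58 ± 0.53, adjusted p = 0.00026). The 10 largest rises were picked only from genes whose groups did not overlap, so the separation of these 3 genes was a condition of the choice. In all 3, B0 sample 1 lay far above the others. For Car3, and for Cidec of the same list, every A0 value was below 1 FPKM. Both passed the filter only through B0, which fixed the direction and the separation. Fabp4, the fatty acid carrier of fat cells and vessels, rose from 65.3, 80.4 and 58.5 FPKM to 567, 159 and 199.98 (1.94 ± 0.35, adjusted p = 0.0014), and Adipoq, adiponectin, from 3.34, 2.06 and 2.19 FPKM to 19.3, 6.21 and 5.46 (1.49 ± 0.38, adjusted p = 0.015). The gene that fell was Cidea, a lipid droplet protein, at 6.62, 6.74 and 3.79 FPKM in A0 and 0.99, 1.5 and 4.47 in B0 (-1.13 ± 0.30, adjusted p = 0.019). The whole list of 10 genes summed to 68.1 to 93.4 FPKM in A0 and to 899, 211 and 290.1 FPKM in B0, and none of its genes was at 0 in any sample. Lep, leptin, did not pass the filter, at 0.01 FPKM in each A0 sample and 1.02, 0.12 and 0.06 in B0. Without B0 sample 1 the list median was 1.39 with 6 higher calls, and in the fit of the 6 samples alone there were 5. The part that adipose tissue in the samples may have had in these values was not tested.

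Of 11 tested genes of simple epithelium 7 rose and none fell (median log2 difference 1.03). The paired keratins Krt8 and Krt18, which form filaments in single-layered epithelia, measured 8.29, 3.59 and 2.29 against 22.0, 58.9 and 20.7 FPKM (2.58 ± 0.37, adjusted p = 0.00018) and 9.61, 3.61 and 2.98 against 25.3, 69.2 and 29.6 FPKM (2.73 ± 0.39, adjusted p = 0.00018). Krt7, a keratin of ducts, was at 1.11, 0.44 and 0.14 FPKM in A0 and 10.5, 25.3 and 6.88 in B0 (3.14 ± 0.38, adjusted p = 4.2e-05), and Krt19 rose by 2.62 ± 0.50. The 4 keratins belong to the 10 largest rises, which were picked only from genes without overlap between groups. B0 sample 2 was the highest in each keratin. Epcam, an epithelial adhesion protein that spermatogonia also carry, did not pass, at 24.9, 23.9 and 19.4 FPKM in A0 and 11.3, 26.0 and 21.7 in B0 (-0.27, adjusted p = 0.60). The list of 12 summed to 59.6 to 90.7 FPKM in A0 and to 125, 303 and 150.4 FPKM in B0. Without B0 sample 2 the median was 0.58 with 4 higher calls, and in the fit of the 6 samples alone there were also 4. Crisp1, a secreted protein of the epididymis, was at 0.12 FPKM in A0 sample 1 and listed at 0 in the other A0 samples, and was at 1.83, 37.4 and 2.80 FPKM in B0 (2.84 ± 0.63, adjusted p = 0.0064), a call that the fit of the 6 samples alone did not make (adjusted p = 0.11). Of the other epididymal markers, Lcn5 and Lcn9 were listed at 0 in all 6 samples, Adam7 was listed at 0 in A0 and at 0.04 to 0.25 FPKM in B0, and Cst8, which germ cells also make, was not called (-0.02). The 8 epididymal genes in the table summed to 32.5 to 58.2 FPKM in A0 and to 33.5, 81.8 and 48.1 in B0. The part of epithelium attached to the testes in these values was not tested. Samt1c, the remaining gene of the 10 largest rises, belongs to a family of near-identical copies on chromosome X, so its values of 0.00, 0.16 and 0.00 FPKM in A0 and 4.30, 5.82 and 10.2 in B0 (2.81 ± 0.77, adjusted p = 0.022) are uncertain. Samt1c and Crisp1 were below 1 FPKM in every A0 sample and passed the filter only through B0, which fixed their direction.

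**Figure D4:**
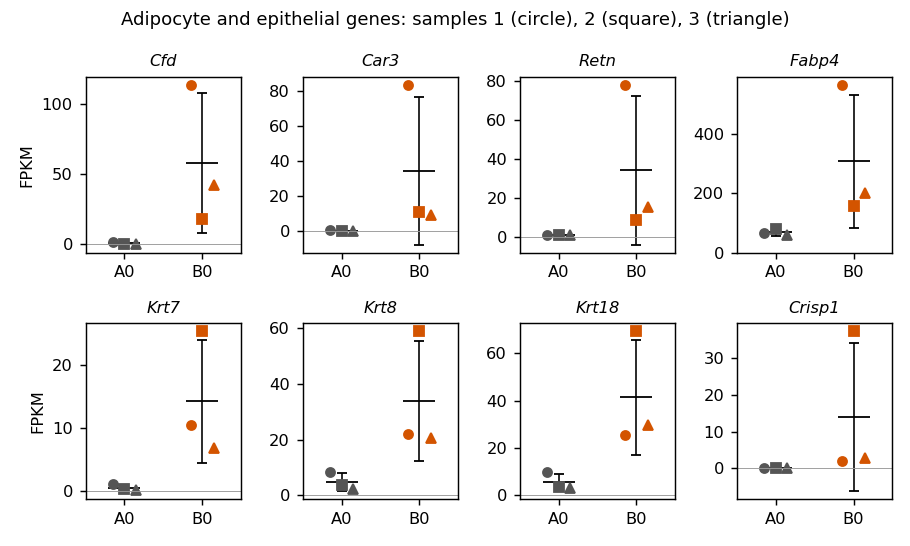
FPKM of 8 adipocyte and epithelial genes in each sample, A0 (gray) and B0 (orange), with the mean and SD of 3 samples. B0 sample 1 (circle) is the highest for Cfd, Car3, Retn and Fabp4, and B0 sample 2 (square) for Krt7, Krt8, Krt18 and Crisp1.

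Blood and muscle markers gave no call. Hba-a1, an alpha globin with near-identical copies, was at 12.0, 10.3 and 2.59 FPKM in A0 and 39.7, 24.6 and 19.0 in B0 (1.77, adjusted p = 0.055), and the 6 erythrocyte genes summed to 8.09 to 22.1 FPKM in A0 and 23.2 to 58.8 in B0. Skeletal muscle genes were near 0, with only Mylpf passing the filter (0.12, adjusted p = 0.64).

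Among genes that defend against oxidation, many of them targets of the factor NRF2, 5 of 16 rose and none fell (median log2 difference 0.58). Nqo1, a quinone reductase, measured 13.4, 18.5 and 22.2 FPKM in A0 and 42.3, 57.6 and 41.9 in B0 (1.36 ± 0.25, adjusted p = 0.0018). Srxn1, sulfiredoxin, was at 41.7, 58.2 and 60.5 FPKM in A0 and 120, 113 and 116 in B0 (1.12 ± 0.25, adjusted p = 0.0065), and Slc7a11, the cystine importer, at 12.9, 15.2 and 21.8 against 22.8, 48.5 and 35.1 (1.02 ± 0.27, adjusted p = 0.021). The groups did not overlap in these 3 genes, which held for 225 of all 230 genes called higher. In 11 of the 16 members every B0 value lay above every A0 value, a pattern that 10.6% of all genes tested showed. Without A0 sample 1 or without B0 sample 2 the list had 2 calls, and without A0 sample 2 or B0 sample 1 it had 3. Glutathione S-transferases, which conjugate busulfan to glutathione, gave 1 rise and 1 fall in 20 genes (median 0.11). Gsto1 was at 26.2, 30.8 and 28.6 FPKM in A0 and 43.7, 51.7 and 43.5 in B0 (0.68 ± 0.16, adjusted p = 0.010), and Gstt3 fell by 0.76 ± 0.23. The alpha-class enzyme gene Gsta1, which has near-identical relatives, measured 1.06 to 4.45 FPKM in A0 and 3.86 to 9.91 in B0 and was not called (1.09, adjusted p = 0.16).

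Of 15 cytokine and chemokine genes 2 rose (median log2 difference 0.45). Il6, an inflammatory cytokine, measured 9.97, 12.6 and 11.4 FPKM in A0 and 18.6, 29.0 and 23.4 in B0 (0.99 ± 0.29, adjusted p = 0.034). Cxcl1, a neutrophil chemokine, was at 113, 148 and 139 FPKM in A0 and 203, 209 and 263 in B0 (0.75 ± 0.23, adjusted p = 0.045). Both calls lay near the threshold, and Cxcl1 lost its call when any of the 6 samples was left out. The list had 5 calls in the fit of the 6 samples alone, 1 without a filter, 1 without B0 sample 1 or B0 sample 2, and 0 without any of the other samples. Interferon-stimulated genes gave no call in 16 (median 0.02), with Bst2, tetherin, at 34.4 to 40.0 FPKM in A0 and 30.3 to 56.1 in B0, and cholesterol synthesis genes none in 20 (median 0.20). Of 13 hypoxia genes 1 rose, Bnip3, a mitochondrial protein, from 112, 112 and 136 FPKM to 225, 265 and 176 (0.87 ± 0.27, adjusted p = 0.041). In 9 of the 13 every B0 value lay above every A0 value (list median 0.69), as in 10.6% of all genes tested. In the fit of the 6 samples alone 5 were called, while none was without a filter, under quantile normalization or with any sample but B0 sample 3 left out. Slc2a1, the glucose transporter GLUT1, was at 50.8, 54.6 and 53.9 FPKM in A0 and 154, 186 and 74.0 in B0 (1.26 ± 0.55, adjusted p = 0.16), and Vegfa, the vessel growth factor, at 74.8 to 84.0 and 126 to 192 FPKM (0.99 ± 0.43, adjusted p = 0.16).

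The same busulfan comparison was made in the cultures with AOS, BA10 against A10 and BA50 against A50, which share no samples with B0 and A0. All comparisons came from 1 fit of the 18 samples with 1 estimate of spread per gene. A gene of small spread is thus called more readily in each, and the shared calls below are not independent. A test of the difference between the busulfan differences called no gene (0%) for 0 against 10 μg/mL and none (0%) for 0 against 50 μg/mL by limma, with smallest adjusted p of 0.60 and 0.22 and with 599 and 950 genes at an unadjusted p under 0.05. With 3 samples per group this does not show that the differences were equal. Of the 1888 genes lower in B0, 1628 (86.2%) were also called lower in BA10, where 2312 (15.3%) were lower, so that they made up 70.4% of the BA10 calls. In BA50, where 2462 (16.3%) were lower, 1655 were shared, or 87.7% of the B0 calls and 67.2% of the BA50 calls. Of the 230 genes higher in B0, 76 (33.0%) were called higher in BA10, which is 12.8% of its 596 calls (3.95%), and 71 (30.9%) in BA50, which is 12.2% of its 584 calls (3.88%).

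Stra8 differed by -4.68 without AOS, -4.29 at 10 μg/mL and -4.77 at 50 μg/mL, and Sycp3 by -3.28, -3.16 and -3.39. The synapsis list had medians of -1.43, -1.51 and -1.55. The adipocyte, epithelial and hypoxia lists had lower medians in the cultures with AOS, although no gene passed the test of the difference. The adipocyte median was 1.94 without AOS, 0.39 at 10 μg/mL and 0.33 at 50 μg/mL, and the simple epithelium median was 1.03, -0.14 and -0.37. Krt7 differed by 3.14, 0.02 and -0.19 (difference of the differences 3.13 with adjusted p = 0.60 for 10 μg/mL and 3.33 with adjusted p = 0.22 for 50 μg/mL). Without B0 sample 1, Car3 passed this test in both (adjusted p = 0.016 and 0.0060), and without B0 sample 2, Crisp1 did (adjusted p = 0.025 and 0.018). Both genes were below 1 FPKM in every A0 sample and passed the filter only through B0. Their test results are thus not independent of the filter. The sample left out was in each case the one with the highest value of the gene. The hypoxia median was 0.69, -0.47 and -0.13, and Bnip3 differed by 0.87, -0.31 and -0.20 (difference of the differences 1.18 and 1.06, adjusted p = 0.91 and 0.67). The elongating spermatid median was -0.12, 0.35 and 0.91, and Prm1 differed by -0.12, 0.35 and 0.93 (difference of the differences -0.46 and -1.05, adjusted p = 0.91 and 0.78).

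**Figure D5:**
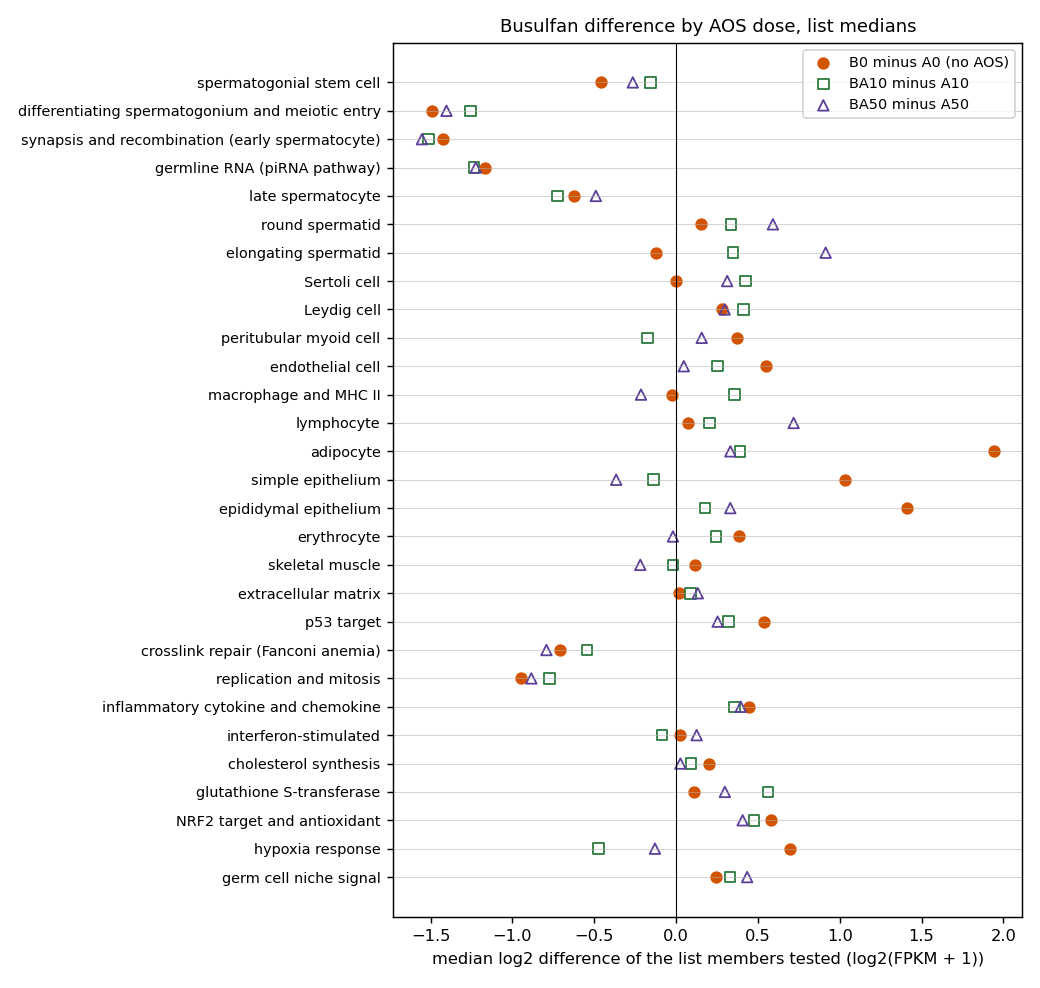
Median log2 difference of each list for B0 minus A0 (filled circles), BA10 minus A10 (squares) and BA50 minus A50 (triangles). The 3 symbols lie close together for meiotic entry, synapsis and piRNA genes and furthest apart for the adipocyte list (1.94, 0.39 and 0.33) and the simple epithelium list (1.03, -0.14 and -0.37).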

How the data were processed

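RNA-seq had been run on cultured mouse testes, and the authors deposited 1 table of FPKM values per gene and sample. The submitters' processing notes name HISAT, Bowtie2, RSEM and GRCm38.p5, whereas the supplementary methods name another aligner and RPKM, so which pipeline made the values is not settled. Read counts and depth are unknown, and no counting interval is given. Symbols for 20656 of the 20811 gene numbers came from the RefSeq gene table (GRCm38.p6) (1846 further genes are models of the sequencing provider).

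Genes with at least 1 FPKM in 3 or more of the 6 samples were tested on log2(FPKM + 1) with limma 3.58.1 in R 4.3.3 (lmFit, eBayes with trend), 1 coefficient for each of the 6 groups over all 18 samples and Benjamini-Hochberg adjustment over 15070 genes. An exact two-sided permutation test of 3 against 3 cannot go below 0.1. The method was tested on simulated data. Samples were grouped by their labels. The study's sampling test needs counts and was not run. Its limits served as a second call rule.

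Named genes were the 10 largest called rises and falls whose groups did not overlap, up to 3 called members per list and direction (or the most abundant member), and 17 chosen genes. Others were named to describe a list after their values were seen. The members and the 29 lists (467 genes, 464 found) were chosen with earlier results of these data known. Alternatives tried were a replicate block, only the 6 samples, another pseudocount, other filters and scalings, eBayes without trend, other call rules and leaving out each sample.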

Additional observations from a re-analysis of the deposited data

How the results depend on the processing

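Of the 55 called genes that were named by rule, 40 kept their direction and call under every setting in which they were tested, and 15 lost the call under at least 1 (Adipoq, Bnip3, Cdh1, Cidea, Crisp1, Cxcl1, Gsto1, Gstt3, Il6, Phlda3, Samt1c, Slc7a11, Tpm2, Trf and Trp53inp1). With 1 sample left out, the call was lost for Gsto1 without A0 sample 1, for Samt1c without A0 sample 1 or 3 or B0 sample 3, for Adipoq without A0 sample 2 or 3 or B0 sample 1, for Cidea without A0 sample 1 or 2 or B0 sample 1 or 2, for Slc7a11 without A0 sample 1 or 2 or B0 sample 2 or 3, for Phlda3 and Tpm2 without A0 sample 1 or 3 or B0 sample 1 or 3, for Gstt3 without any sample but A0 sample 2, for Il6 and Trp53inp1 without any but B0 sample 1 and for Bnip3 without any but B0 sample 3. The adjusted p was then at most 0.18. The cause was not tested. No called gene changed sign. The count of higher genes, 230, was 481 under quantile normalization, 60 with a log2 difference of at least 1 and 8 with the stricter limits. Leaving out 1 sample gave 94 to 170, with 94 without A0 sample 1, 114 without A0 sample 3, 128 without B0 sample 2, 140 without B0 sample 3 and 153 without B0 sample 1. The count of lower genes, 1888, was 503 and 391 under the same limits, and 1320 to 1729 with 1 sample left out. In the fit of the 6 samples alone 244 genes were higher and 1381 lower. That fit did not call Adipoq (adjusted p = 0.083), Cdh1 (0.14), Cidea (0.13), Crisp1 (0.11), Phlda3 (0.059), Slc7a11 (0.083), Tpm2 (0.10) or Trf (0.057). The differences between AOS doses, 0 genes each, became 1 gene each with a pseudocount of 0.1 (a model of the sequencing provider) and 0 to 1 with 1 sample left out (Car3 without B0 sample 1, Crisp1 without B0 sample 2). Car3 and Crisp1 passed the filter only through B0.

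Same-numbered A0 and B0 samples did not deviate together (r = -0.36, -0.44 and 0.17), so no pairing by number was seen. The highest values were 0.49 for A0 sample 2 with B0 sample 1 and 0.43 for A0 sample 1 with B0 sample 2. Deviations from means of 3 samples cannot settle whether samples shared a repeat. With the replicate block 221 genes were higher and 1742 lower.

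Uncalled values that changed sign were those of Lyz2 (-0.12 under quantile normalization, -0.043 scaled to the column sum) and, with 1 sample left out, Lyz2 (-0.21 to 0.27), Prm1 (-0.33 to 0.091), Prm2 (-0.45 to 0.040), Tnp1 (-0.29 to 0.047), Cd3d (-0.14 to 0.30), Bst2 (-0.10 to 0.33), Cxcl12 (-0.31 to 0.41) and Acta2 (-0.10 to 0.51). With a mean of at least 5 FPKM no lymphocyte or skeletal muscle gene was left to test, and the meiotic entry list kept 1 lower call, the synapsis list 11 and the Fanconi list 4, since fewer of their members were tested. Without counts, the error of genes with low FPKM cannot be given. No cause was tested for the adipocyte and epithelial rises.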
